A study of Mus musculus with 8 samples.

Results

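Of 6 hepatocellular carcinomas (HCC) of FEAT transgenic mice, 3 showed no autosome with an absolute mean log2 ratio of 0.1 or more, and these quiet tumours (tumours 2, 3 and 6) are set here against the 2 non-tumour livers of the same study. The series holds 8 samples, measured by array comparative genomic hybridisation of liver DNA from male C57BL/6 mice. FEAT is another name for Mettl13, a gene for a methyltransferase on chromosome 1. The sources used here give neither the promoter of the transgene nor the number of founder lines.

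Tumour 2 came from a FEAT mouse of 21 months, tumour 3 from one of 20 months and tumour 6 from one of 12 months. The labels describe tumour 2 as confined to the liver, tumour 3 as one of several in the liver and tumour 6 as localised there. Of the non-tumour livers, one came from a transgenic mouse of 13 months (the non-tumour FEAT liver), and the other (the wild-type liver) from a 6-month-old animal without the transgene. All were set against DNA of a normal wild-type liver at 6 months of the same strain and sex. The non-tumour livers thus differ from each other in genotype and age, each genotype has 1 of them, and both are younger than tumours 2 and 3. Tumour, age and transgene can therefore not be fully told apart. DNA carries no expression markers, so the labelled tissue could not be checked.

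The rule used the autosome means, and the following values only describe the choice. The largest absolute autosome mean was 0.0305 in tumour 6 (chromosome 8), 0.0526 in tumour 3 (chromosome 1) and 0.0824 in tumour 2 (chromosome 10). The nearest tumour outside the rule was tumour 4, at 0.199 on chromosome 16. The non-tumour livers reached 0.0167 and 0.0341. The choice depends on the centring. With each array centred on the mode of its values instead of the median, the largest absolute mean was 0.115 in tumour 2 and 0.138 in tumour 3, so that only tumour 6 would have met the rule. In tumour 3 this is an offset of the whole array, since its autosome means had an SD of only 0.00592 around each other.

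In array comparative genomic hybridisation, test and reference DNA compete for the same probes, and the ratio of their signals follows the copy number. In an HCC with unstable chromosomes, arms or whole chromosomes are gained or lost, whereas germline differences between mice appear as small segments that tumour and normal tissue share. A change carried by part of the cells, or diluted by normal cells in the sample, gives a shift smaller than a full copy would. Fewer changed cells and fewer changed copies per cell cannot be told apart in bulk DNA.

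Levels below are given as log2 of the test signal over that of the reference, after centring on the autosomal median of the array. The probe noise, taken from neighbouring probes, was 0.233, 0.321 and 0.360 in tumours 2, 3 and 6, 0.323 in the non-tumour FEAT liver and 0.221 in the wild-type liver. Tumour 2 and the wild-type liver also had more probes without a value (3111 and 3322) than tumours 3 and 6 and the non-tumour FEAT liver (1350, 2171 and 1319). These 2 sets of arrays cut across the groups, and their part in the results was not tested beyond a fit with the set as a block. Over autosomal bins of 1 Mb, the 10 pairs of arrays correlated at r from 0.276 to 0.816, the highest being tumour 6 with the non-tumour FEAT liver. The bins share probes and base composition in all arrays, so that this r only describes how alike the arrays are.

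The small segments that carry the focal results are shown first, by the probes on which they rest. For genome build and probe strand the sources used here give nothing, and positions are those of the array. Whether a probe lies in an exon or an intron was not determined. Tumour 3 lost 8 consecutive probes named for Smyd3, a gene for a lysine methyltransferase, and these probes are shown because neither non-tumour liver stood low there.
Smyd3 probe 1, chr1:179230850-179230909: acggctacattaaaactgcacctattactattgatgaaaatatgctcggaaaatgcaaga
Smyd3 probe 2, chr1:179237048-179237107: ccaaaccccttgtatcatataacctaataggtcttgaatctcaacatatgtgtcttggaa
Smyd3 probe 3, chr1:179244208-179244267: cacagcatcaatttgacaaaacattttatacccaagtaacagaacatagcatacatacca
Smyd3 probe 4, chr1:179252579-179252638: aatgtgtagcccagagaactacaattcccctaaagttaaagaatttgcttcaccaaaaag
Smyd3 probe 5, chr1:179264004-179264063: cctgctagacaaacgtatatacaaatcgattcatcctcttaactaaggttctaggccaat
Smyd3 probe 6, chr1:179271593-179271652: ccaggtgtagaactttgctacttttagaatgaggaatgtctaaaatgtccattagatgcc
Smyd3 probe 7, chr1:179279041-179279100: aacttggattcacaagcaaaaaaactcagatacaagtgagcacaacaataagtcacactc
Smyd3 probe 8, chr1:179292189-179292248: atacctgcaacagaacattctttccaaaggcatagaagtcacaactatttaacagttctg
Among the losses shared with the non-tumour FEAT liver, the strongest lay at Mid1, a gene for a ubiquitin ligase that in laboratory mice reaches into the region shared by the X and Y chromosomes. Its lowest probes were these.
Mid1 probe 1, chrX:164750016-164750075: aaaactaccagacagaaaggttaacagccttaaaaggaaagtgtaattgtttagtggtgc
Mid1 probe 2, chrX:164753531-164753590: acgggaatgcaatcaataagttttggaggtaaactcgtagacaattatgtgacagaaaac
Mid1 probe 3, chrX:164758480-164758539: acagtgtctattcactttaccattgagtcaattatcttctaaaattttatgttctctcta
Mid1 probe 5, chrX:164776839-164776895: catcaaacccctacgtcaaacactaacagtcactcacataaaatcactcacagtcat
A pair of X probes named for the transcript AK006176 separated tumours 2 and 6 from tumour 3.
AK006176 probe 3, chrX:153387175-153387234: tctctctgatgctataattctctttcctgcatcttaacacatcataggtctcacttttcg
AK006176 probe 5, chrX:153404853-153404912: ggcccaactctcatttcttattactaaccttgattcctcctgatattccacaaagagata
The transgenic gene itself, Mettl13, appears on the array under the older name 5630401D24Rik, with 2 probes.
Mettl13 probe 1, chr1:162500192-162500247: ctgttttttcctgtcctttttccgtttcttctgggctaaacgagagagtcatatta
Mettl13 probe 2, chr1:162506803-162506861: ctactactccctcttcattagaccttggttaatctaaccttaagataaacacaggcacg

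The first question was whether the quiet tumours carried chromosome shifts below the calling level. Tumour 2 did and tumour 3 did not, by description, while tumour 6 lay between them. Each autosome was read against the median autosome of its own array, which removes the offset of tumour 3. On chromosome 10, tumour 2 stood at 0.060, tumour 3 at -0.003, tumour 6 at 0.000, the non-tumour FEAT liver at -0.002 and the wild-type liver at 0.003. Tumour 2 alone was high, by 4.27% in linear signal, and 119 of its 127 bins of 1 Mb lay above the array's median. On chromosome 16, tumour 2 stood at -0.088, and the other 4 arrays stood at 0.001, 0.019, 0.005 and 0.007 in the same order. There the linear signal of tumour 2 differed by -5.90%, and 6 of 96 bins lay above the array's median. On chromosome 19, tumour 2 stood at -0.073, and the others at -0.013, -0.016, -0.013 and -0.008. No bin of chromosome 19 (0 of 59) lay above the array's median in tumour 2, against 22, 18, 20 and 22 in the other arrays.

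**Figure D1:**
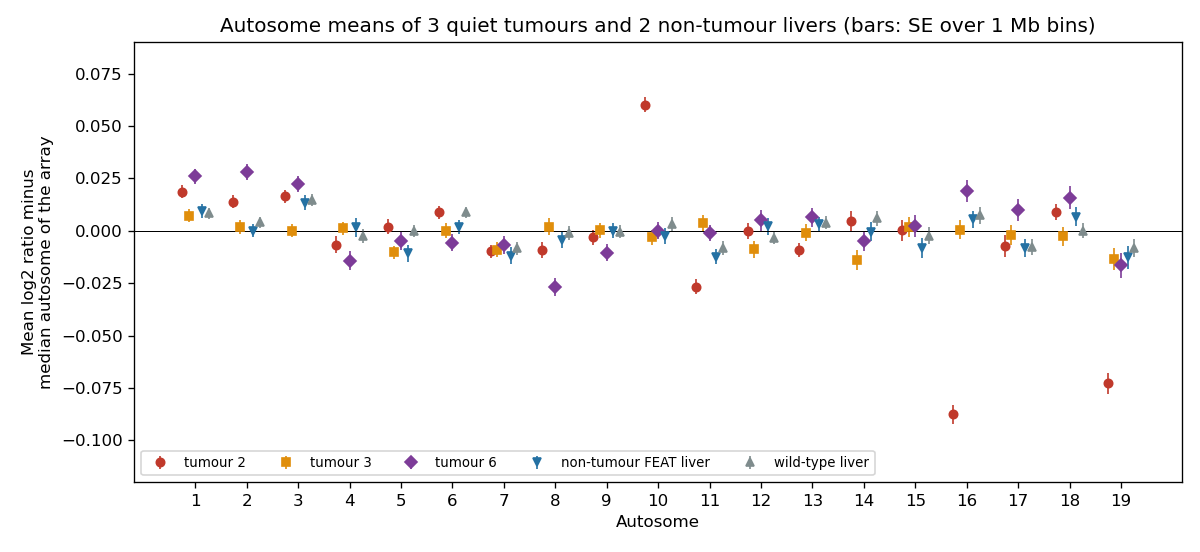
Mean log2 ratio of each of 19 autosomes minus the median autosome of the array (y axis) in 3 quiet tumours and 2 non-tumour livers, with bars for the SE over 1 Mb bins. Tumour 2 stands apart at chromosomes 10, 16 and 19 (0.060, -0.088 and -0.073), while tumour 3 and both non-tumour livers stay between -0.014 and 0.015.

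The shifts of tumour 2 lay in both the proximal and the distal part of these chromosomes, though not evenly. The proximal part of chromosome 10, up to its middle, stood at 0.070 and the distal part at 0.052. For chromosome 16 these were -0.105 and -0.069, and for chromosome 19 they were -0.081 and -0.070. Some bins past the middle of chromosome 10 stood near or below 0 in tumour 2. In the lowest, tumours 2, 3 and 6 had -0.026, 0.012 and -0.056, the non-tumour FEAT liver -0.111 and the wild-type liver -0.061. The SE over bins was 0.0036, 0.0045 and 0.0051 on the 3 chromosomes, which covers the spread along the chromosome and not that between animals. After correction for GC content the 3 values were 0.061, -0.091 and -0.070. Chromosome 11 of tumour 2 was also low, at -0.027, but at -0.017 after that correction.

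**Figure D2:**
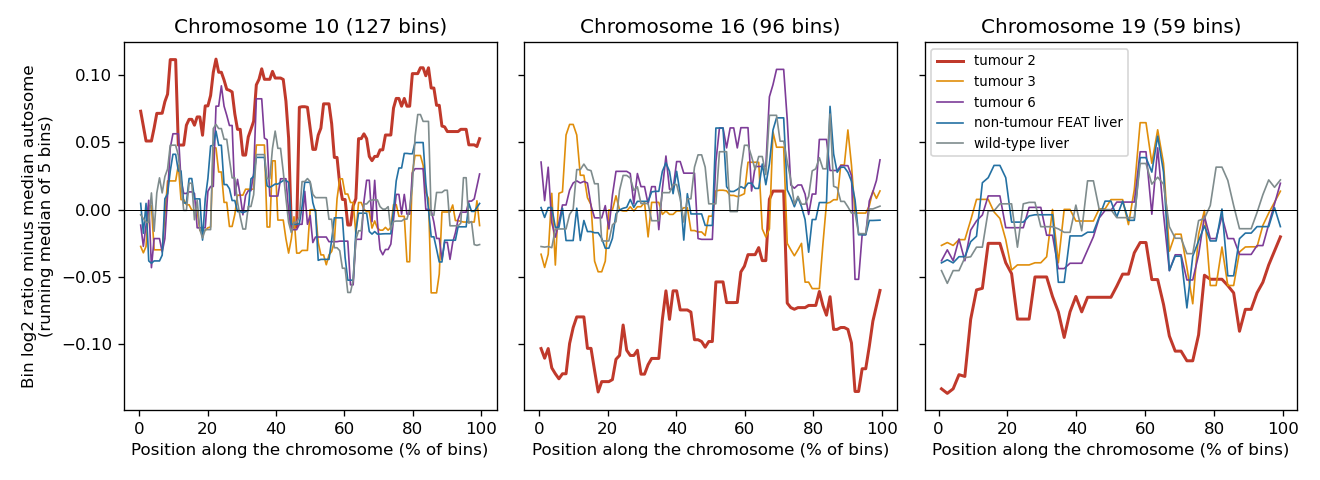
Running median of 5 bins of 1 Mb along chromosomes 10, 16 and 19 (x axis: share of bins from the first), as log2 ratio minus the median autosome of the array. The line of tumour 2 runs above the other 4 arrays over most of chromosome 10 and below them over most of chromosomes 16 and 19, while all 5 lines share smaller waves.

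Most genes of the fixed lists on these chromosomes followed them, read over the probes within 0.5 Mb. On chromosome 10, 6 of 7 list genes stood above the median autosome in tumour 2, with a median of 0.046. They included Mdm2, which encodes an inhibitor of p53, at 0.068, and Lin28b, which encodes a blocker of let-7 processing, at 0.070. The SE over probes was 0.026 and 0.027 there. Cdk4, also of the HCC oncogene list, stood lower in tumour 2, at 0.021 (SE 0.023), against 0.030 in tumour 3. Smarcb1 stood at 0.021 (SE 0.020) in tumour 2. The surroundings of Stk11, which encodes a tumour suppressor kinase, stood at -0.024 in tumour 2 and at -0.071 and -0.066 in the non-tumour FEAT and wild-type livers. On chromosome 16, all 4 list genes stood below it in tumour 2 (median -0.109), among them Socs1, an inhibitor of cytokine signalling, at -0.128 and the acetyltransferase gene Crebbp at -0.108. On chromosome 19, all 5 stood below it (median -0.089). Fas, a death receptor gene, had -0.066 in tumour 2, against values from -0.007 to 0.002 in the other 4 arrays.

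Tumour 6, from the youngest of the 3 tumour mice, showed smaller shifts. Chromosome 2 stood at 0.028, chromosome 1 at 0.026 and chromosome 3 at 0.022, and chromosome 8 stood at -0.027. Of 125 bins of chromosome 8, 30 lay above the array's median, against 61 in the non-tumour FEAT liver and 60 in the wild-type liver. Chromosome 3 was the highest autosome of both non-tumour livers too, at 0.013 and 0.015, and after the GC correction it stood at 0.013 in tumour 6. Chromosomes 2 and 8 stood at 0.023 and -0.028 after it. Chromosome 8 of tumour 2 stood at -0.009 and of tumour 3 at 0.002, so that neither of the others shared the low value of tumour 6.

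Counted over autosomes, 3 of 19 stood 0.05 or more from the median autosome in tumour 2 and 0 in each of the other 4 arrays. At 0.02 or more there were 4 in tumour 2, 0 in tumour 3, 4 in tumour 6 and 0 in each non-tumour liver. With the GC correction, chromosomes 1 and 3 of tumour 6 no longer reached that distance, at 0.0196 and 0.0132. Nor did chromosome 11 of tumour 2, at -0.017. The SD of autosome means was 0.0318 in tumour 2, 0.00592 in tumour 3, 0.0150 in tumour 6, 0.00765 in the non-tumour FEAT liver and 0.00654 in the wild-type liver. Tumour 3 was thus as even as the non-tumour livers, and lower than both. After the GC correction the SDs were 0.0313, 0.00607, 0.0140, 0.00566 and 0.00411, and tumour 3 lay just above the non-tumour FEAT liver. No test is given for these values, because the tumours were chosen by them.

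Segments too weak to be called add detail. Of segments with at least 100 probes that stood 0.05 or more from the median autosome, tumour 2 had 18, tumours 3 and 6 had 0, the non-tumour FEAT liver had 1 and the wild-type liver had 2. Segments were sought in values divided by the probe noise, so that weak ones are harder to find in noisier arrays. The noise was 0.233 in tumour 2 and 0.221 in the wild-type liver. It was 0.321 and 0.360 in tumours 3 and 6 and 0.323 in the non-tumour FEAT liver. Its part in these counts was not tested. In tumour 2, chromosome 10 held a stretch of 4572 probes at 0.075 and one of 3033 probes at 0.072. Between them, no segment of at least 100 probes stood 0.05 or more away. Chromosome 16 was divided into stretches of 5022, 2773 and 996 probes at -0.102, -0.055 and -0.108. On chromosome 19, the first 635 probes stood at -0.139 and the following 5577 at -0.065. Outside these chromosomes, a stretch of 777 probes on chromosome 1 stood at 0.084, and one of 2075 probes on chromosome 14 at 0.055. A stretch of 391 probes in the wild-type liver, at 0.090, lay inside the latter. A low stretch on chromosome 3 likewise began at the same probe in tumour 2 (380 probes at -0.076) and in the wild-type liver (175 probes at -0.100).

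The sex chromosomes were not used by the rule and were tested. The X chromosome stood at 0.111, 0.105 and 0.051 in tumours 2, 3 and 6, at 0.008 in the non-tumour FEAT liver, and the wild-type liver stood at 0.111. All 3 tumours lay within the range of the non-tumour livers. The quiet tumours had 0.089 ± 0.033 (SD, n = 3) and the difference from the non-tumour livers was 0.030 (exact two-sided permutation p = 0.8, 10 splits). The Y chromosome stood at 0.134, 0.130 and -0.050 in the 3 tumours, at -0.016 in the non-tumour FEAT liver, and the wild-type liver stood at 0.119. Tumours 2 and 3 were with the wild-type liver here, and tumour 6 with the non-tumour FEAT liver. The difference was 0.020 (exact two-sided permutation p = 1). With 3 arrays against 2, the smallest p that this exact test can give is 0.2, so that 0.05 could not be reached. The direction of the Y difference rests on single arrays: it was -0.048 without the non-tumour FEAT liver, -0.011 without tumour 2 and -0.009 without tumour 3. The X difference was -0.022 without the non-tumour FEAT liver.

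The spread of bins within chromosomes gives unevenness on a finer scale. It was 0.0418, 0.0426 and 0.0495 in tumours 2, 3 and 6, against 0.0439 in the non-tumour FEAT liver, with 0.0358 for the wild-type liver. The non-tumour FEAT liver lay within the range of the tumours. The difference of 0.00478 had an exact two-sided permutation p of 0.6, and the probe noise, which was highest in tumour 6 and lowest in the wild-type liver, moved with it. Its part in the spread was not tested.

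Segments under 3 Mb were next counted, at a calling level of 0.2 in either direction and with at least 5 probes. Tumour 2 had 9 (6 gains and 3 losses), tumours 3 and 6 had 4 each (1 gain and 3 losses), the non-tumour FEAT liver had 8 losses, and the wild-type liver had 10 (9 gains and 1 loss). The quiet tumours therefore held no more small segments on average than the non-tumour livers: 5.67 ± 2.89 (SD, n = 3) against a mean of 9, with a difference of -3.33 (exact two-sided permutation p = 0.4). This count depends on the smallest number of probes and on the penalty that limits the number of segments. With at least 10 probes, tumours 2, 3 and 6 had 6, 4 and 4 segments, the non-tumour FEAT liver 6 and the wild-type liver 4. The difference was then -0.33. At the strictest penalty tried, tumours 2, 3 and 6 had 2, 3 and 2 segments, the non-tumour FEAT liver 2 and the wild-type liver 0, and the difference turned to 1.33. At the loosest, the wild-type liver had 148, more than each of the other arrays (88, 77, 33 and 45). Tumour 2 and the wild-type liver, the arrays of lowest probe noise here, had the most segments both at the main setting and at the loosest penalty. The part of the noise in these counts was not tested. After the GC correction, tumour 2 had 4 gains instead of 6, and the wild-type liver had 4 instead of 9.

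Each quiet tumour shared 2 called losses with the non-tumour FEAT liver, and none with the wild-type liver. Of the others, 7 segments in tumour 2, 2 in tumour 3 and 2 in tumour 6 overlapped no call of the same direction in a non-tumour liver by 50% or more. A missing call is not a missing change, however, so the levels of all 11 distinct segments were read in every array as medians over their probes.

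**Figure D3:**
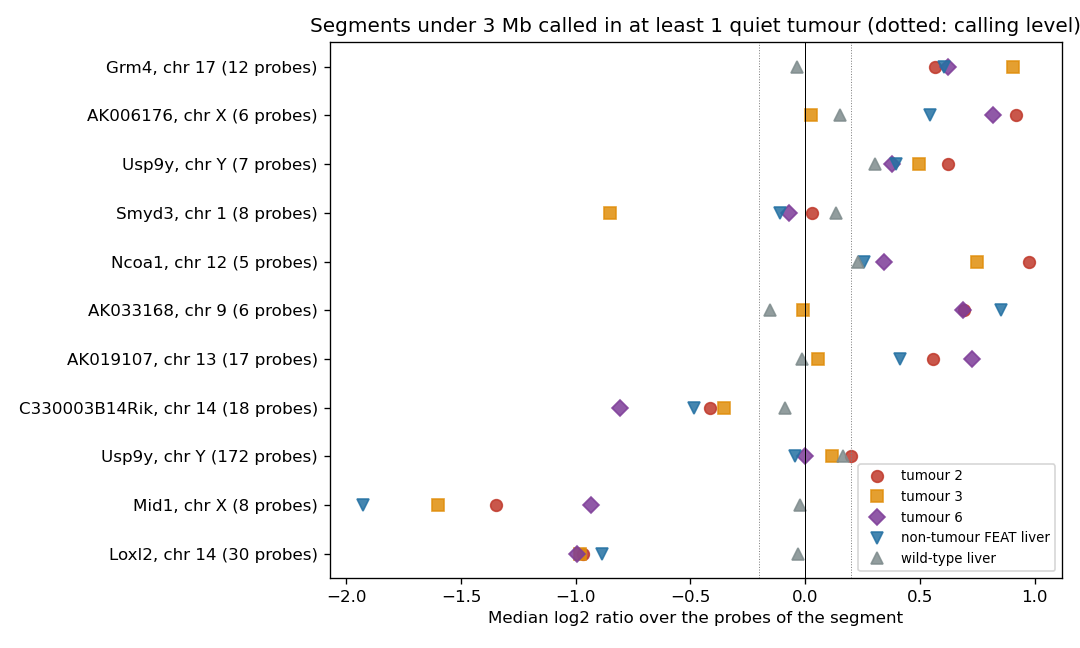
Median log2 ratio over the probes of each segment under 3 Mb called in at least 1 quiet tumour (x axis), in 3 quiet tumours and 2 non-tumour livers; dotted lines mark the calling level of 0.2. Smyd3 is low in tumour 3 only, at -0.85, and at Loxl2 and Mid1 all 3 tumours and the non-tumour FEAT liver lie far below the wild-type liver.

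Smyd3 was the one segment low in a single array. Over chr1:179230850-179292248, a stretch of 61.4 kb, tumour 3 stood at -0.85, tumour 2 at 0.03, tumour 6 at -0.07, the non-tumour FEAT liver at -0.11 and the wild-type liver at 0.14. Of the 8 probes shown above, 7 were at or below -0.61 in tumour 3, and probe 4 stood at 0.18. Probe 4 stood between 0.40 and 0.55 in the other 4 arrays, so that it too was lowest in tumour 3. The probes on each side had a median of 0.06 in tumour 3. The loss covered part of the gene only. Over all 74 Smyd3 probes, local values (level minus the chromosome mean of the array) were -0.04, -0.05 and -0.04 in tumours 2, 3 and 6, -0.04 in the non-tumour FEAT liver and 0.03 in the wild-type liver.

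**Figure D4:**
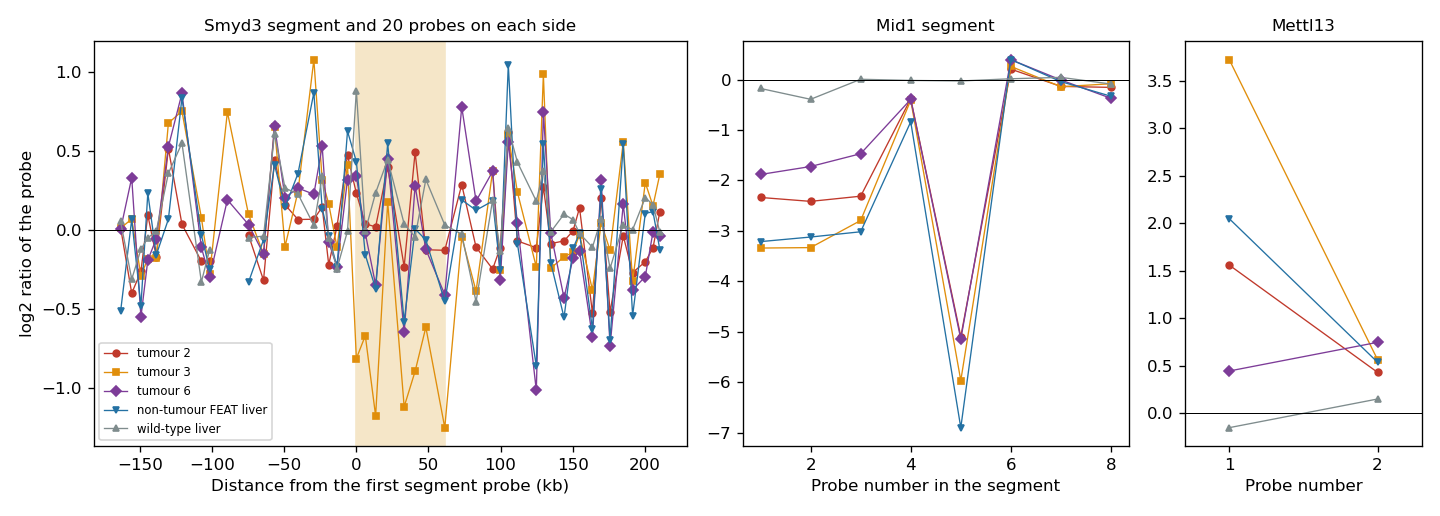
Log2 ratios of single probes at Smyd3 with 20 probes on each side (x axis: kb from the first probe of the segment, shaded), at Mid1 and at Mettl13 (x axis: probe number), in 5 arrays. In the shaded stretch tumour 3 runs low in 7 of 8 probes, at Mid1 probe 5 reaches -6.90 in the non-tumour FEAT liver, and Mettl13 probe 1 ranges from -0.15 in the wild-type liver to 3.73 in tumour 3.

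At 3 gained segments the quiet tumours were split, and tumours 2 and 6 stood with the non-tumour FEAT liver while tumour 3 stood near the wild-type liver. At AK006176 on the X chromosome (6 probes), tumour 2 had 0.92 and tumour 6 had 0.82, the non-tumour FEAT liver had 0.55, tumour 3 had 0.02 and the wild-type liver had 0.15. The 2 probes shown above carried this most clearly: probe 3 stood at 0.94, -0.02, 0.86, 1.01 and -0.06 in tumours 2, 3 and 6, the non-tumour FEAT liver and the wild-type liver. At AK033168 on chromosome 9 (6 probes), tumours 2 and 6 had 0.69 each and the non-tumour FEAT liver had 0.85, against -0.01 in tumour 3 and -0.15 in the wild-type liver. At AK019107 on chromosome 13 (17 probes over 972 kb), tumours 2 and 6 had 0.56 and 0.73 and the non-tumour FEAT liver had 0.41, against 0.06 in tumour 3 and -0.02 in the wild-type liver. Of the 5 arrays, only tumour 2 was called at the first pair and only tumour 6 at the last. A call needs a segment to form, which was judged on values divided by the probe noise of the array, and its mean over probes to reach 0.2. An array without a call could therefore have a mean as high as the called one. At AK019107 the means were 0.70 in tumour 6, 0.32 in tumour 2 and 0.199 in the non-tumour FEAT liver. At AK006176 they were 0.83 in tumour 2, 0.74 in tumour 6 and 0.47 in the non-tumour FEAT liver. At AK033168 they were 0.70, 0.71 and 0.79 in the latter order.

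The other gains called in the quiet tumours differed in where the non-tumour FEAT liver stood. At Grm4, a gene for a metabotropic glutamate receptor on chromosome 17, tumours 2, 3 and 6 had 0.56, 0.91 and 0.62, the non-tumour FEAT liver had 0.60 and the wild-type liver had -0.04. All 4 transgenic livers were high and the wild-type liver was not. The labels do not say whether the wild-type liver and the wild-type reference came from different mice. If they were from 1 mouse, its levels near 0 here and at Loxl2 and Mid1 would follow from the design. At Ncoa1, which encodes a coactivator of nuclear receptors, 5 probes on chromosome 12 stood at 0.97, 0.75 and 0.34 in the tumours and at 0.26 and 0.23 in the non-tumour livers. Tumours 2 and 3 were the highest there, but probe 3 of the 5 was below 0 in both. At Usp9y, a deubiquitinase gene on the Y chromosome, a segment of 7 probes stood at 0.62, 0.50 and 0.38, against 0.40 and 0.31, and tumour 6 overlapped the non-tumour FEAT liver. A second Usp9y segment of 172 probes stood at 0.20, 0.12 and 0.00 in the tumours and at -0.04 and 0.17 in the non-tumour livers, so that the groups overlapped. Its mean in tumour 2, the array called there, was 0.23, and after the GC correction 0.13, below the calling level. The whole Y chromosome of tumour 2 had a mean of 0.134, and the probes on each side of this segment had a median of 0.07. Part of the level of this segment is thus that of the whole chromosome.

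The losses common to the quiet tumours were also present in the non-tumour FEAT liver. At Loxl2, which encodes a lysyl oxidase that crosslinks collagen, the 30 probes from the mitochondrial iron carrier gene Slc25a37 through Entpd4 stood at -0.97, -0.98 and -0.99 in tumours 2, 3 and 6. The non-tumour FEAT liver had -0.89 and the wild-type liver -0.03. Among the tumours this level varied by an SD of 0.013 (n = 3), the smallest of the 11 segments. Of the 30 probes, 30, 29 and 30 were at -0.5 or lower in the tumours, 28 in the non-tumour FEAT liver and 1 in the wild-type liver. At C330003B14Rik on chromosome 14 (18 probes), the tumours had -0.41, -0.35 and -0.81, the non-tumour FEAT liver had -0.48 and the wild-type liver had -0.09, with tumour 6 the lowest.

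Mid1 was low to a different depth in each transgenic liver. Over its 8 probes, tumours 2, 3 and 6 had -1.35, -1.60 and -0.93, the non-tumour FEAT liver had -1.93 and the wild-type liver had -0.02. Probes 1 to 3 stood between -2.42 and -2.31 in tumour 2, between -3.34 and -2.79 in tumour 3, between -1.88 and -1.47 in tumour 6 and between -3.21 and -3.02 in the non-tumour FEAT liver. Probe 5 was the lowest in each of them, at -5.10, -5.97, -5.15 and -6.90, and stood at -0.03 in the wild-type liver. Probes 6 to 8 lay between -0.37 and 0.40 in all 5 arrays, so that 4 of the 8 probes carried the loss in every tumour.

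For Mettl13, the transgenic gene, both probes were higher in the FEAT livers than in the wild-type liver. Probe 1 stood at 1.56, 3.73 and 0.44 in tumours 2, 3 and 6, at 2.05 in the non-tumour FEAT liver, and the wild-type liver stood at -0.15. Tumours 3 and 6 thus differed more from each other than either did from the non-tumour FEAT liver. Probe 2 stood at 0.43, 0.56 and 0.75, at 0.54 and at 0.15, and its order was not that of probe 1. Above the median of 20 neighbouring probes, probe 2 stood at 0.42, 0.36, 0.71, 0.49 and 0.06. The SD of those neighbours was 0.25, 0.39, 0.33, 0.26 and 0.39 in the same order. In tumour 3, probe 2 thus stood above its neighbours by less than their SD. The gene had too few probes for the test across genes, which needed 3.

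The quiet tumours were then compared with the non-tumour livers at every place of the genome with limma. Local values were used here, the level minus the chromosome mean of the array, because the rule had used chromosome means. Of 2523 bins of 1 Mb, limma called 0 at an adjusted p of 0.05 (0.0%), and 35 had an unadjusted p under 0.05 (1.39%). Of 23253 windows of 10 probes, it called 0 (0.0%), with 471 at an unadjusted p under 0.05 (2.03%). Of 13754 genes with at least 3 probes, it called 0 (0.0%), with 388 at an unadjusted p under 0.05 (2.82%). With the 2 sets of arrays as a block, limma again called 0 bins, 0 windows and 0 genes. A miss in this test does not show that the groups are equal, since the non-tumour livers had 1 array of each genotype.

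The outcome depended on which non-tumour liver was used. Without the non-tumour FEAT liver, limma called 9 of 23253 windows with the wild-type liver alone as control (3 higher, 6 lower), the lone array being assumed to vary like the tumours. They included 3 windows over Entpd4 and Loxl2 (the pair at Loxl2 with differences of -0.97 and -0.57), the one at Mid1 (-0.64), one at AK015366 beside Grm4 (0.43) and one at Exosc4, Gpaa1 and Cyc1 on chromosome 15 (0.43). The non-tumour FEAT liver stood at -0.99, -0.92 and -0.65 in the first 3 windows and at -0.93, 0.33 and 0.24 in the others, near the tumours. Without the wild-type liver, limma called 11 windows, all higher in tumours, and there the non-tumour FEAT liver was low. At Pfkm, the gene for muscle phosphofructokinase, it stood at -0.51, while tumours 2, 3 and 6 had 0.01, 0.19 and 0.08 and the wild-type liver had 0.06. At Dach2, a transcription factor gene on the X chromosome, it had -0.47, against 0.08, 0.11 and 0.03 and 0.01. None of these windows was called at an adjusted p of 0.05 by limma in the main fit, which held both non-tumour livers.

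The windows with the lowest p are named as a description. Jph3, which encodes a junctophilin of excitable cells, led those higher in tumours, with local values of 0.24, 0.14 and 0.20 in tumours 2, 3 and 6 against -0.07 and -0.10. The difference was 0.28 (SE 0.06), and limma's adjusted p was 1.00. In all 10 named windows the groups did not overlap, which 6.81% of all windows did upward and 7.75% downward. At E130310K16Rik on chromosome 4 the difference was 0.29, at Ascl3 and Tmem9b on chromosome 7 it was 0.27, at Zic5 and Zic2, genes for zinc finger factors of neural development, it was 0.29, and at Klhdc1 and Klhdc2 on chromosome 12 it was 0.24. Of these, only the window at Zic5 and Zic2 was among those called without the wild-type liver. Of the 5 windows lowest in tumours, 4 lay on the X chromosome, led by Aff2 with local values of -0.04, 0.00 and 0.00 against 0.24 and 0.21. The X chromosome holds 11955 of the 232626 probes. The windows were picked by p in these same arrays, and whether the X chromosome holds more of them was not tested. The others on X, at LOC236749, at AY940614 and at a place with no gene named, differed by -0.22, -0.19 and -0.20. The window of Entpd4 and Loxl2 was also among the 5, although the non-tumour FEAT liver stood at -0.93 there and the tumours between -1.01 and -0.98.

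Among single genes, Pcdh12, which encodes an endothelial protocadherin, had the lowest p, with local values of 0.25, 0.41 and 0.17 in tumours 2, 3 and 6 against -0.24 and -0.21. The difference was 0.50 (SE 0.08), with an adjusted p of 1.00 in limma. Every quiet tumour was above both non-tumour livers there, as in 7.29% of all genes, and every one was below them in 7.27%. The next 4 were 5730410I19Rik, now named Ubr7, with a difference of 0.36, AK140355 with 0.33, 8430429K09Rik with 0.48 and Arpc4, which encodes a subunit of the actin-branching complex, with 0.33. Of the lower ones, AK048237 had -0.37, the MAP kinase phosphatase gene Dusp4 had -0.32, the growth factor gene Fgf18 had -0.25, Hrsp12 (now Rida, a deaminase abundant in liver) had -0.24 and the adaptor gene Grb2 had -0.22. Fgf18 stood at -0.32, -0.26 and -0.36 in the tumours against -0.02 and -0.10. Grb2 rested on 8 probes and the other 9 genes on 3 or 4.

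Of the genes in 7 fixed lists, 113 had at least 3 probes, and limma called 0 of them. At an unadjusted p under 0.05 there were 5 (4.42%), against 2.82% of all genes. All 3 tumours were above both non-tumour livers in 8 (7.08%, against 7.29%) and below both in 7 (6.19%, against 7.27%), so that the lists were near the background. Of 17 HCC oncogenes, 12 were higher and 5 lower, with a median difference of 0.041. Akt1, a kinase gene of the PI3K pathway, was the highest, with local values of 0.07, 0.12 and 0.12 in tumours 2, 3 and 6 against -0.09 and -0.06, and a difference of 0.18. With the median over its 4 probes in place of the mean, the difference was -0.025. Yap1, the transcriptional effector of Hippo signalling, had the lowest difference, -0.07, and tumour 6 and the non-tumour FEAT liver were its low arrays, at -0.26 and -0.20. Without the wild-type liver the Yap1 difference was 0.055. Over all genes tested the median was -0.001, with 6781 higher and 6973 lower.

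**Figure D5:**
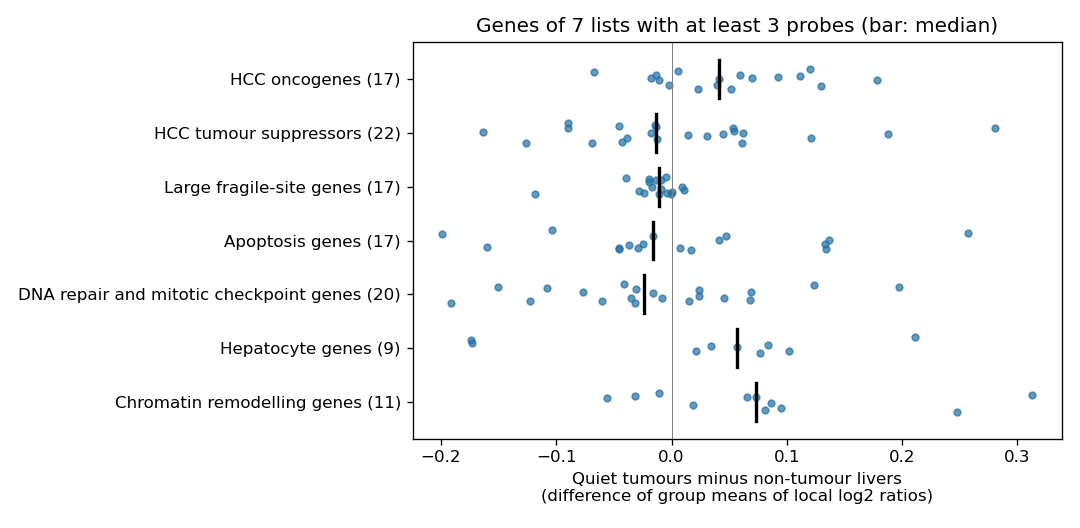
Differences of local log2 ratios, quiet tumours minus non-tumour livers (x axis), for genes of 7 lists with at least 3 probes; points are genes and bars are list medians. Most genes lie within 0.2 of zero, and the fragile-site genes, which have the most probes, lie closest together.

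Of 22 HCC tumour suppressors, 10 were higher and 12 lower (median -0.013). Stk11 was the highest at 0.28, but its local values of 0.02, 0.08 and 0.33 in the tumours overlapped the 0.05 of the non-tumour FEAT liver, and the wild-type liver stood at -0.33. Without the wild-type liver the Stk11 difference was 0.094, and without the non-tumour FEAT liver 0.47. Brca2, a gene of recombination repair, was the lowest at -0.16, with the wild-type liver alone high at 0.27, and had 0.032 without that liver. Rassf1, a suppressor of Ras signalling, differed by 0.19, with 0.58, 0.52 and 0.61 in the tumours against 0.43 and 0.34. Of 17 apoptosis genes, 8 were higher and 9 lower (median -0.016), from Casp9, the initiator caspase of the mitochondrial pathway, at -0.20 to Xiap, a caspase inhibitor, at 0.26. The Xiap difference was 0.082 without the wild-type liver and 0.43 without the non-tumour FEAT liver, and that of Casp9 was -0.12 without tumour 2. Of 20 DNA repair and mitotic checkpoint genes, 8 were higher and 12 lower (median -0.024), and the highest was Espl1, the gene for separase, at 0.20. Espl1 had local values of 0.08, 0.20 and -0.10 in the tumours against -0.27 and 0.00, so that the groups overlapped. Without the non-tumour FEAT liver the Espl1 difference was 0.061.

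Large fragile-site genes, where breaks under replication stress cluster, have many probes and are the list measured best. Of 17, 3 were higher and 14 lower, and the differences ran from -0.12 to 0.01 with a median of -0.011. Macrod2 set the low end with only 3 probes and stood at 0.0078 with their median, and Wwox, with 119 probes, was the highest at 0.01 and turned to -0.015 without the non-tumour FEAT liver and -0.0099 without tumour 3. The list holds Smyd3, which differed by -0.04 as a whole gene. Of 9 hepatocyte genes, 7 were higher and 2 lower (median 0.057), from the amino acid enzyme gene Tat at -0.17 to the fetal albumin homologue gene Afp at 0.21. The direction of Tat rests on single arrays, since it was 0.15 without the non-tumour FEAT liver, -0.50 without the wild-type liver and 0.00083 without tumour 2. Afp ranged from 0.12 to 0.38 over the alternatives, the lowest without the wild-type liver and the highest with the median over probes. Of 11 chromatin remodelling genes, 8 were higher and 3 lower (median 0.073), from Smarcc1 at -0.06 (0.026 without the non-tumour FEAT liver) to Kmt2d at 0.31. At Kmt2d the non-tumour FEAT liver alone was low, at -0.62, and the tumours and the wild-type liver lay between -0.16 and 0.08. Without the non-tumour FEAT liver the Kmt2d difference was 0.039. Kmt2b, a related methyltransferase gene, differed by 0.25, with 0.16, 0.26 and 0.05 in the tumours. Every quiet tumour was above both non-tumour livers there, as in 7.29% of all genes, and Kmt2b was named after its values were seen.

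DNA of lymphocytes would lower the antigen receptor loci, which these cells rearrange. Against 200 probes on each side, the T cell receptor alpha and delta locus stood at 0.05, -0.09 and 0.07 in tumours 2, 3 and 6 and at 0.06 and 0.05 in the non-tumour FEAT and wild-type livers. The immunoglobulin lambda locus, with 22 probes, was the lowest of 6 loci, at -0.02, -0.15 and -0.13 in the tumours and -0.06 and -0.04 in the non-tumour livers. At the remaining 4 loci the 5 arrays lay between -0.06 and 0.10.

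Single probes far from the rest were counted last. At -1.5 or lower there were 10, 51 and 127 probes in tumours 2, 3 and 6, 485 in the non-tumour FEAT liver and 11 in the wild-type liver. At 1.5 or higher there were 24, 203 and 46, against 11 and 101. The non-tumour FEAT liver was thus rich in low probes and tumour 3 in high ones. Of 232626 probes, 15 stood at -1 or lower in all 3 quiet tumours, of which 13 did so in the non-tumour FEAT liver and 0 in the wild-type liver. At 1 or higher in all 3 there were 30, of which 3 did so in the non-tumour FEAT liver and 5 in the wild-type liver. Of those 30, in 3 both non-tumour livers lay within 0.5 of zero, 1 of them named for Zbtb33, a methyl-DNA binding factor on the X chromosome. The Zbtb33 probe stood at 1.07, 1.06 and 1.32 in the tumours and at 0.42 and 0.47 in the non-tumour FEAT and wild-type livers. In tumours 1, 4 and 5, which are not quiet, it stood at 1.08, 1.01 and 1.17. These 3 probes were picked by their values in the same arrays, so that their gap between the groups follows from the choice. Probes far from 0 in the non-tumour livers alone were not counted.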

How the data were processed

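Liver DNA of 8 mice was hybridised to 2-colour Agilent 244A arrays, the test DNA being labelled with Cy3 and the reference DNA with Cy5, per the labels. Data were extracted with Feature Extraction and analysed with CGH analytics 3.4, per the series description. For the wild-type array, per its file headers, the version was Agilent Feature Extraction 9.1.3.1. The deposited values are log2 ratios. On the wild-type array they equalled the deposited log10 ratio of red over green with its sign turned and its base changed (r = -1), plus 0.0014, so that higher means more test DNA. For the other arrays the direction rests on the labels. The intensity flags of the deposited scanner file served to leave out dim, outlying or saturated probes as an alternative. The sources used here name no genome build.

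Spots of a probe were averaged (232626 probes), and the autosomal median of each array was set to 0. Segments came from penalised least squares with a penalty factor of 2, at least 5 probes and a calling level of 0.2. Bins, windows and genes were fitted with limma 3.58.1 in R 4.3.3 over 5 arrays, as values minus the chromosome mean of the array, with Benjamini-Hochberg adjustment. Single values had exact permutation tests over 10 splits, with the smaller tail doubled. The scripts were tested on simulated data. Python 3.11.15 with numpy 2.4.6 and pandas 2.3.3 was used. The replicates are separate mice only as far as the labels separate them, and the number of arrays limits the precision.

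The tumours, the lists and the tests were chosen with earlier results of these data known. Named genes were Mettl13, the segments under 3 Mb called in a quiet tumour, the 5 windows and 5 genes of lowest p in each direction, and in each list the genes with the largest difference each way. Some genes that this rule or a list would name are not reported here. Genes near the chromosomes of tumour 2, and Rassf1, Kmt2b and Zbtb33, were named after their values were seen, as were windows called when a liver was left out. Of 161 list genes, 141 were found on the array, older names being matched through a RefSeq table of assembly GRCm38.p6. Probe sequences are those of the deposited scanner file.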

Additional observations from a re-analysis of the deposited data

Results flagged for a closer look

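Among the 6 tumours of the series, 34 sets of values were searched for a tumour far from the others. The sets were chromosomes, small segments and the 2 Mettl13 probes. For sets not chosen by their values, chance alone would single out about 1 in 20. That rate does not hold here. The rule kept the autosome means of quiet tumours small, and the segments were those called in a quiet tumour. A quiet tumour was singled out once. At Smyd3, tumour 3 stood at -0.85, while the other 5 tumours lay between -0.07 and 0.21, so that the gap was 0.731 of the whole range. The segment had been chosen because it was called in tumour 3.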

How the results depend on the processing

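With 3 tumours against 2 livers, the small number of arrays and a probe noise of up to 0.360 limit what can be seen. No paired analysis was possible because the groups share no replicate numbers. The count of called bins and of called genes was 0 under all alternatives run, and that of windows was 0 except for 2 when arrays were centred on the mode with the chromosome mean kept (the windows of Entpd4 and Loxl2), and for 0 to 11 when single arrays were left out. In those 2 windows of Entpd4 and Loxl2 the non-tumour FEAT liver stood at -0.99 and -0.92 after centring on the median, near the tumours, so that they do not set the tumours apart from it. The difference in small segments ranged from -30.5 to 1.33 and was -0.33 with at least 10 probes. It reversed only at a penalty factor of 4, where it was 1.33, and the cause was not tested. The difference in local spread stayed above 0 in all 8 alternatives (0.00076 to 0.0088). The X difference ranged from -0.022 to 0.081 and the Y difference from -0.048 to 0.088. When single arrays were left out, the Y difference was -0.011, -0.009 and -0.048 in 3 of 5 cases, and the X difference was -0.022 without the non-tumour FEAT liver. Centring on the mode moved the largest absolute autosome mean to 0.115 in tumour 2 and 0.138 in tumour 3, by the construction of that centring. Chromosomes 10, 16 and 19 of tumour 2 and 2 and 8 of tumour 6 were read against the median autosome of their array. They moved by less than their SE-based intervals with the GC correction and with flagged probes left out. Centring on the mode was run too, but it cannot move such values. Named single genes were picked by their p or difference in these same arrays, so a steady direction is partly fixed by that choice. In the 5 genes of lowest p each way the groups did not overlap, and leaving out 1 array could not reverse them. Of 24 named single genes, 17 kept their direction in all alternatives run. The 10 values that reversed belong to the others. When single arrays were left out, the difference ranged from -0.14 to 0.026 for Smarcc1, from -0.19 to 0.055 for Yap1, from -0.36 to 0.032 for Brca2, from -0.50 to 0.15 for Tat and from -0.015 to 0.038 for Wwox. With the median over probes it was -0.025 for Akt1, 0.0078 for 2900006F19Rik (Macrod2) and -0.028 for Wwox. Tat was 0.00083 without tumour 2, and Wwox -0.0099 without tumour 3.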
